A study of Mus musculus with 106 samples.

Results

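The comparison set the ribosome-bound mRNA of cerebral vGluT2+ neurons against that of cerebral Gad2+ neurons in control mice. Libraries were taken where the labels gave the genotype as control, the tissue as cerebrum, the preparation as RiboTag immunoprecipitation (IP) and the cell type as vGluT2 or Gad2, which gave 6 libraries of each type, 12 of the 106 libraries in the series. RiboTag mice carry an *Rpl22* allele that gains a hemagglutinin (HA) tag in cells with Cre recombinase, so that an antibody to HA recovers the ribosomes of those cells with their bound mRNAs. The study profiled several neuron types in this way in control mice and in mice with an expanded CAG repeat in the Huntington's disease (HD) gene, with total RNA of the same homogenates from a subset of animals.

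The control mice were Hdh Q7/Q7, with 2 normal alleles of the HD gene, on the inbred 129S4 background, and received no treatment. They were adults of similar age. Each carried 1 copy of the HA-tagged *Rpl22* allele and 1 copy of Cre, placed behind an internal ribosome entry site in *Slc17a6* (vGluT2-IRES-Cre) or in *Gad2* (Gad2-IRES-Cre). The HD mice were Hdh Q7/Q200 and otherwise alike. The cerebrum here was 1 hemisphere without cerebellum and olfactory bulb. All that remained was homogenised together, which included cortex, hippocampus, striatum, thalamus, hypothalamus, midbrain and any brainstem left after dissection. Cre acts permanently, so a cell that had expressed *Slc17a6* or *Gad2* only during development was tagged as well. The mice of each Cre line formed their own cohort, and the Cre line and the cell type cannot be told apart. Every library came from a different mouse, and total counts ran from 29903367 to 68022499 per vGluT2+ IP and from 25849573 to 42528290 per Gad2+ IP.

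Glutamatergic neurons load vesicles with glutamate through a vesicular transporter. Neurons of cortex and hippocampus mostly use vGluT1, encoded by *Slc17a7*, and neurons of thalamus, hypothalamus and brainstem mostly use vGluT2, encoded by *Slc17a6*, although many cortical neurons express vGluT2 early in life. GABAergic neurons make GABA from glutamate with glutamate decarboxylases, load it with the vesicular transporter encoded by *Slc32a1*, and in the forebrain comprise the projection neurons of the striatum and the interneurons of cortex and hippocampus.

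An irregularity in the animals bears on the samples. Of 11 control mice with an IP library from both cerebrum and cerebellum, 3 had libraries that differed in Y-linked genes. All were of the vGluT2 line. The summed level of 4 Y-linked genes was 28.6 CPM (counts scaled to a common library total) in the cerebral and 0 in the cerebellar library of the mouse of replicate 1, 0 and 101 for replicate 3, and 63.7 and 0 for replicate 4. The cerebral and cerebellar IPs of these mice therefore cannot be taken as coming from 1 animal. The mouse of replicate 4 also had total RNA libraries, at 19.0 CPM for cerebrum and 97.6 CPM for cerebellum, so Y-linked genes were present in all its libraries but the cerebellar IP. No total RNA of the mice of replicates 1 and 3 was analysed here. Both regions of the other 8 mice matched. Genes on the Y chromosome were present in 2 of 6 cerebral vGluT2+ and 4 of 6 cerebral Gad2+ IPs. The sex gene *Xist*, used below as a covariate, reached 6.52 CPM in cerebral vGluT2+ but only 0.282 CPM in cerebral Gad2+ IPs. As a covariate it therefore partly followed the type and was no adjustment for sex alone. Cerebral vGluT2+ replicate 6 held no count of *Xist* or of the Y-linked genes. Without the cerebral IPs of these 3 mice, an option chosen after seeing the data, 1949 genes were higher in vGluT2+ and 1609 in Gad2+ IPs, against 2188 and 2123 with all libraries. Replicate 1 of the vGluT2+ IPs also stood apart from the other 5 in the level of several genes named below, and without it 2526 and 2526 genes were called. In the number of genes with at least 1 count, other libraries stood apart. Gad2+ replicate 5 held 16838 genes against 21108 to 21758 in the other 5, and vGluT2+ replicate 6 held 18012 against 20112 to 22403. Without the former 2102 and 2103 genes were called, and without the latter 2039 and 1990.

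Across 14433 protein-coding genes tested by edgeR's quasi-likelihood test, 2188 were higher in vGluT2+ IPs (15.2%) and 2123 in Gad2+ IPs (14.7%) at a Benjamini-Hochberg adjusted p of 0.05 or less. A difference of 4-fold or more was found for 286 of the former (1.98%) and 351 of the latter (2.43%). These shares of all genes are the background for every list of genes below. When the test asked instead for a difference significantly beyond 2-fold, 420 and 459 genes passed. The 6 values of one type lay entirely above or below the 6 of the other for 2634 genes (18.2%), 2607 of which were called. The median log2 difference of all genes, vGluT2+ minus Gad2+ IP, was -0.002.

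The genes that define each transmitter came first. *Slc17a6* on chromosome 7 (51622006 to 51671119, GRCm38), the gene that carries Cre in the vGluT2 line, ranged from 42.8 through a median of 122 to 157 CPM in vGluT2+ IPs and from 7.13 through 18.1 to 30.02 CPM in Gad2+ IPs. The groups did not overlap, and vGluT2+ replicate 1 was the lowest of its group, nearer to the highest Gad2+ library than to any other vGluT2+ library. The log2 difference was 2.62 ± 0.32 (SE, n = 6 per group, edgeR adjusted p = 1.35e-05). *Gad2*, on chromosome 2 (22622205 to 22693874) and carrying Cre in the other line, ranged from 12.7 through 19.8 to 31.3 CPM in vGluT2+ IPs and from 250 through 455 to 505 CPM in Gad2+ IPs. Every Gad2+ library stood far above every vGluT2+ library, with replicate 6 the lowest of the Gad2+ group. The log2 difference was -4.34 ± 0.24 (edgeR adjusted p = 2.14e-09). Both labels thus matched the marker that drives Cre. As these were bulk IPs, fewer cells of a type and less RNA per cell cannot be told apart here or below.

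The most abundant vesicular glutamate transporter of the vGluT2+ IPs was not the one that drove Cre. *Slc17a7* lay at 1818 to 2389 CPM with a median of 2080 in vGluT2+ IPs, and at 121 to 406 CPM with a median of 196 in Gad2+ IPs. No library of one type came near the other, and Gad2+ replicate 6 was the highest of its group. The log2 difference was 3.22 ± 0.25 (edgeR adjusted p = 1.22e-07). Scaled by transcript length, the mean level in vGluT2+ IPs was 385 CPM per kb for *Slc17a7* and 21.3 CPM per kb for *Slc17a6*. *Slc17a8*, which encodes vGluT3, the transporter of some interneurons and serotonin neurons, went the other way. It ranged from 1.38 through 2.15 to 3.55 CPM in vGluT2+ and from 5.54 through 8.91 to 10.02 CPM in Gad2+ IPs, without overlap (log2 difference -1.84 ± 0.24, edgeR adjusted p = 2.82e-05). *Gls2*, a glutaminase gene, was not called and ranged from 20.4 to 34.2 CPM in vGluT2+ and from 22.0 to 34.6 CPM in Gad2+ IPs (edgeR adjusted p = 0.561).

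Of 7 genes of GABA synthesis, packaging, uptake and breakdown, 6 were higher in Gad2+ IPs, 4 of them 4-fold or more, and none was higher in vGluT2+ IPs. Their median log2 difference was -4.26. *Slc32a1*, the vesicular GABA transporter, ranged from 7.78 through 11.2 to 19.2 CPM in vGluT2+ and from 623 through 808 to 948 CPM in Gad2+ IPs. The lowest Gad2+ library was far above the highest vGluT2+ library, and the log2 difference was -6.04 ± 0.27 (edgeR adjusted p = 3.08e-10). *Gad1*, the other glutamate decarboxylase, had medians of 45.8 and 1591 CPM (log2 difference -4.98 ± 0.21, edgeR adjusted p = 2.03e-10). Smaller differences were found for the enzymes that break GABA down, *Abat* (log2 difference -1.69 ± 0.13) and *Aldh5a1* (-1.13 ± 0.10), both without overlap. The exception was *Slc6a13*, a transporter mainly of meninges and blood vessels, at 1.63 CPM or less in every library (edgeR adjusted p = 0.732). Per kb, the Gad2+ IPs held 289 CPM of *Slc32a1*, 202 of *Gad1* and 72.3 of *Gad2*, against 4.40, 6.43 and 3.56 CPM per kb in vGluT2+ IPs.

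**Figure D1:**
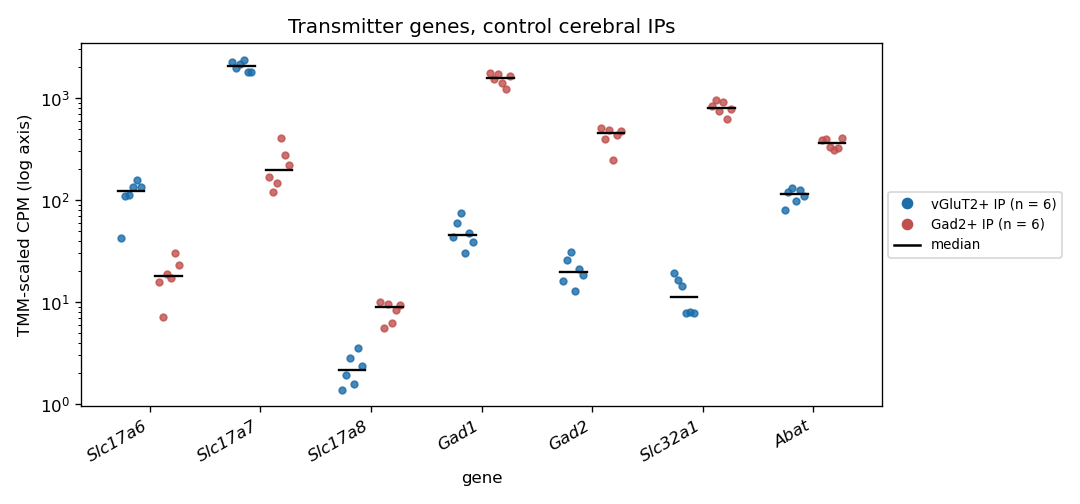
Levels of transmitter genes in the 12 control cerebral IPs, in CPM after TMM scaling on a log axis, with a point for each library (vGluT2+ blue, Gad2+ red, 6 each) and a black bar at the median. *Slc17a7* lies at 1818 to 2389 CPM in vGluT2+ and at 121 to 406 CPM in Gad2+ IPs, while *Slc32a1* lies at 7.78 to 19.2 and at 623 to 948 CPM.

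Total RNA from the cerebrum of 3 mice of each line gave the background of the whole tissue. None of 14911 genes was called in either direction (0%) by the same edgeR test, where 81 passed an unadjusted p of 0.05 and DESeq2 called 1 gene higher in the vGluT2 line and 0 in the Gad2 line. *Slc17a7* was at 1559, 1746 and 2101 CPM in total RNA of the vGluT2 line and at 1090, 1585 and 1792 CPM in that of the Gad2 line, the groups overlapping. *Slc32a1* was at 226, 240 and 295 CPM against 171, 222 and 257 CPM, again overlapping. *Slc17a6* in total RNA was at 22.1 to 52.2 CPM in the vGluT2 line and 31.2 to 142 CPM in the Gad2 line. With only 3 libraries per line, smaller differences between the lines would not have been detected.

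Genes of excitatory neurons of the telencephalon, the part of the brain that forms cortex and hippocampus, were among the strongest in vGluT2+ IPs. Of 12 such genes, 11 were higher there, 7 of them 4-fold or more, and none was higher in Gad2+ IPs, with a median log2 difference of 3.57. Among all genes 15.2% were higher in vGluT2+ IPs, 1.98% by 4-fold or more, and 14.7% were higher in Gad2+ IPs. *Neurod6*, a transcription factor of cortical and hippocampal pyramidal neurons, ranged from 113 through 156 to 166 CPM in vGluT2+ and from 2.63 through 4.04 to 10.6 CPM in Gad2+ IPs. Its groups were far apart (log2 difference 4.90 ± 0.31, edgeR adjusted p = 9.45e-09). *Tbr1*, a transcription factor of early-born and deep-layer cortical neurons, ranged from 122 through 222 to 232 CPM in vGluT2+ and from 4.33 through 11.8 to 24.0 CPM in Gad2+ IPs. For this gene vGluT2+ replicate 1 was low, and still above every Gad2+ library (log2 difference 3.89 ± 0.35, edgeR adjusted p = 4.23e-07).

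*Emx1*, *Neurod2* and *Fezf2*, further transcription factors of the cortex, had log2 differences of 4.53, 3.81 and 3.95, each without overlap. *Camk2a*, a kinase of excitatory synapses, and *Nrgn*, which binds calmodulin in dendrites, were abundant in both types and differed less. Median levels of *Camk2a* were 2902 CPM in vGluT2+ and 1098 CPM in Gad2+ IPs (log2 difference 1.31 ± 0.12), and the log2 difference of *Nrgn* was 1.42 ± 0.12. The member not called was *Emx2*, at 3.44 to 5.79 CPM in vGluT2+ and 2.67 to 4.42 CPM in Gad2+ IPs (edgeR adjusted p = 0.378).

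Thalamic relay neurons, which carry sensory and motor signals to the cortex, are classical vGluT2 neurons. Of 12 genes of these neurons, 11 were higher in vGluT2+ IPs and none in Gad2+ IPs, against 15.2% and 14.7% of all genes. A difference of 4-fold was reached by 2, against 1.98% of all genes, and the median log2 difference was 1.56. *Tcf7l2*, a Wnt pathway transcription factor of the thalamus, ranged from 33.8 through 66.0 to 90.8 CPM in vGluT2+ and from 8.72 through 16.6 to 22.2 CPM in Gad2+ IPs. As for *Slc17a6*, vGluT2+ replicate 1 had the lowest level of its group, and the groups did not overlap (log2 difference 1.99 ± 0.24, edgeR adjusted p = 1.09e-05). *Prkcd*, a protein kinase C of sensory thalamus, differed by 1.76 ± 0.14 and *Ntng1*, a netrin-like protein of thalamic axons, by 1.83 ± 0.15. The 2 members past 4-fold were the homeobox genes *Lhx9* (log2 difference 3.60 ± 0.36) and *Lhx2* (2.82 ± 0.25), of which *Lhx2* also acts in the cortex. *Adarb1*, an RNA-editing enzyme, was at 256 to 304 CPM in vGluT2+ and 243 to 298 CPM in Gad2+ IPs and was not called (edgeR adjusted p = 0.715).

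Of 10 genes of glutamatergic nuclei in hypothalamus, habenula, subthalamus and midbrain, 8 were higher in vGluT2+ IPs, 7 of them 4-fold or more, and none was higher in Gad2+ IPs (median log2 difference 2.49). *Adcyap1*, the precursor of the peptide PACAP, ranged from 37.3 through 47.7 to 58.1 CPM in vGluT2+ and from 2.64 through 4.06 to 9.17 CPM in Gad2+ IPs, with Gad2+ replicate 1 the highest of its group. The log2 difference was 3.34 ± 0.25 (edgeR adjusted p = 6.95e-08). The 2 members not called were *Nr5a1* of the ventromedial hypothalamus, at 1.18 CPM or less in every library, and *Otp*, a hypothalamic homeobox gene. *Otp* ranged from 2.26 to 4.36 CPM in vGluT2+ and from 1.71 to 9.53 CPM in Gad2+ IPs (edgeR adjusted p = 0.0579). It was called higher in Gad2+ IPs in 5 of 24 alternative settings, the test against 2-fold left aside here and below. These were DESeq2 (DESeq2 adjusted p = 0.0299), scaling by the upper quartile or by library totals (edgeR adjusted p = 0.0438 and 0.0428), and leaving out Gad2+ replicate 4 (edgeR adjusted p = 0.00473) or vGluT2+ replicate 5 (edgeR adjusted p = 0.0398).

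The 17 genes of striatal projection neurons, the GABAergic output cells of the striatum, were all higher in Gad2+ IPs, 14 of them 4-fold or more, with a median log2 difference of -3.71. *Ppp1r1b*, which encodes the dopamine-regulated phosphatase inhibitor DARPP-32, ranged from 136 through 165 to 241 CPM in vGluT2+ and from 1988 through 2138 to 2714 CPM in Gad2+ IPs. Here vGluT2+ replicate 1 was the highest of its group, though far below every Gad2+ library (log2 difference -3.73 ± 0.15, edgeR adjusted p = 1.13e-10). *Penk*, the enkephalin precursor of the indirect pathway, ranged from 104 through 118 to 167 CPM and from 1543 through 2035 to 2134 CPM in the same order (log2 difference -3.97 ± 0.13, edgeR adjusted p = 3.01e-11).

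The largest difference of the striatal list was that of *Adora2a*, the adenosine receptor of indirect pathway neurons, at 3.87 through 5.28 to 9.11 CPM in vGluT2+ and 270 through 276 to 356 CPM in Gad2+ IPs (log2 difference -5.69 ± 0.24, edgeR adjusted p = 2.03e-10). Genes of both output pathways were present. *Drd2* of the indirect pathway differed by -3.89 ± 0.12, and *Drd1* and *Tac1* of the direct pathway by -3.40 ± 0.13 and -4.08 ± 0.14. The dynorphin precursor *Pdyn* had a log2 difference of -3.50. The smallest differences were those of transcription factors that other neurons also use. *Foxp1* differed by -0.76 ± 0.13 without overlap. *Ebf1* overlapped, at 1.06 to 9.42 CPM in vGluT2+ and 6.92 to 13.5 CPM in Gad2+ IPs (log2 difference -0.99 ± 0.35, edgeR adjusted p = 0.0434) and lost its call without any single one of Gad2+ replicates 1 to 5 or vGluT2+ replicates 2, 3 and 5, with edgeR adjusted p from 0.0507 to 0.0948. In all its call was lost in 14 of 24 alternative settings, among them *Xist* as a covariate (edgeR adjusted p = 0.21) and a replicate block (edgeR adjusted p = 0.0565).

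Of 14 genes of forebrain interneuron classes, 12 were higher in Gad2+ IPs, 9 of them 4-fold or more, and 2 in vGluT2+ IPs, 1 of them 4-fold or more (median log2 difference -2.77). *Sst*, the somatostatin precursor, ranged from 25.8 through 34.3 to 45.1 CPM in vGluT2+ and from 671 through 787 to 875 CPM in Gad2+ IPs (log2 difference -4.49 ± 0.14, edgeR adjusted p = 1.37e-11). *Npy*, neuropeptide Y, *Vip*, vasoactive intestinal peptide, and *Lhx6*, the transcription factor of interneurons from the medial ganglionic eminence, had log2 differences of -5.51, -5.33 and -5.33. *Pvalb*, the calcium buffer of fast-spiking cells, differed less. It ranged from 32.5 through 68.4 to 85.8 CPM in vGluT2+ and from 309 through 420 to 628 CPM in Gad2+ IPs, without overlap (log2 difference -2.85 ± 0.24, edgeR adjusted p = 2.91e-07). The exceptions were *Cck* and *Lamp5*. *Cck*, the cholecystokinin precursor of interneurons and many pyramidal cells, ranged from 407 through 472 to 829 CPM in vGluT2+ and from 74.8 through 89.0 to 120 CPM in Gad2+ IPs (log2 difference 2.53 ± 0.18, edgeR adjusted p = 3.12e-08). *Lamp5* overlapped between groups, at 265 to 335 and 215 to 289 CPM (log2 difference 0.30 ± 0.10, edgeR adjusted p = 0.0277). Its call was lost without any single one of Gad2+ replicates 1, 3 and 5 or vGluT2+ replicates 5 and 6 (edgeR adjusted p from 0.0526 to 0.0912). In all it was lost in 11 of 24 alternative settings, among them scaling by library totals (edgeR adjusted p = 0.0791) and a replicate block (edgeR adjusted p = 0.0682).

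Transcription factors of GABAergic lineages had the largest median difference of the lists examined. Of 14, 13 were higher in Gad2+ IPs, 12 of them 4-fold or more, and the median log2 difference was -5.35. *Dlx5*, a distal-less homeobox gene of subpallial neurons, ranged from 0 through 0.472 to 1.03 CPM in vGluT2+ and from 38.0 through 45.2 to 53.4 CPM in Gad2+ IPs (log2 difference -6.44 ± 0.41, edgeR adjusted p = 1.16e-08). Its partner *Dlx6* and the homeobox gene *Six3* had log2 differences of -5.98 and -5.80, and *Dlx1* and *Dlx2* of -5.35 and -5.49. *Gata3*, a factor of GABAergic neurons of midbrain and brainstem, was at 0.476 CPM or less in vGluT2+ and at 9.47 to 11.6 CPM in Gad2+ IPs (log2 difference -5.62 ± 0.41). The sizes varied with the setting, with *Xist* as a covariate to -7.09 for *Dlx5* and -6.45 for *Six3*, and without the 3 libraries with unmatched Y-linked genes to -6.23 for *Dlx2* and -6.29 for *Gata3*. *Meis2*, used beyond GABAergic cells, differed by -1.53 ± 0.12. Of 23 clustered *Hox* genes, which mark hindbrain and spinal cord, 15 were tested and none was called, against 15.2% and 14.7% of all genes. The summed *Hox* level was 0.351 to 48.3 CPM in vGluT2+ and 1.08 to 68.5 CPM in Gad2+ IPs. In total RNA it was 28.5 to 61.0 CPM in the vGluT2 line and 25.2 to 50.3 CPM in the Gad2 line. RNA of *Hox*-expressing regions was thus present, at levels that varied widely between IPs of the same type. Its part in the differences between types was not tested. *Hoxb1* and *Hoxc8* were at 0 in all vGluT2+ IPs and at 0.0327 CPM or less in every Gad2+ IP.

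**Figure D2:**
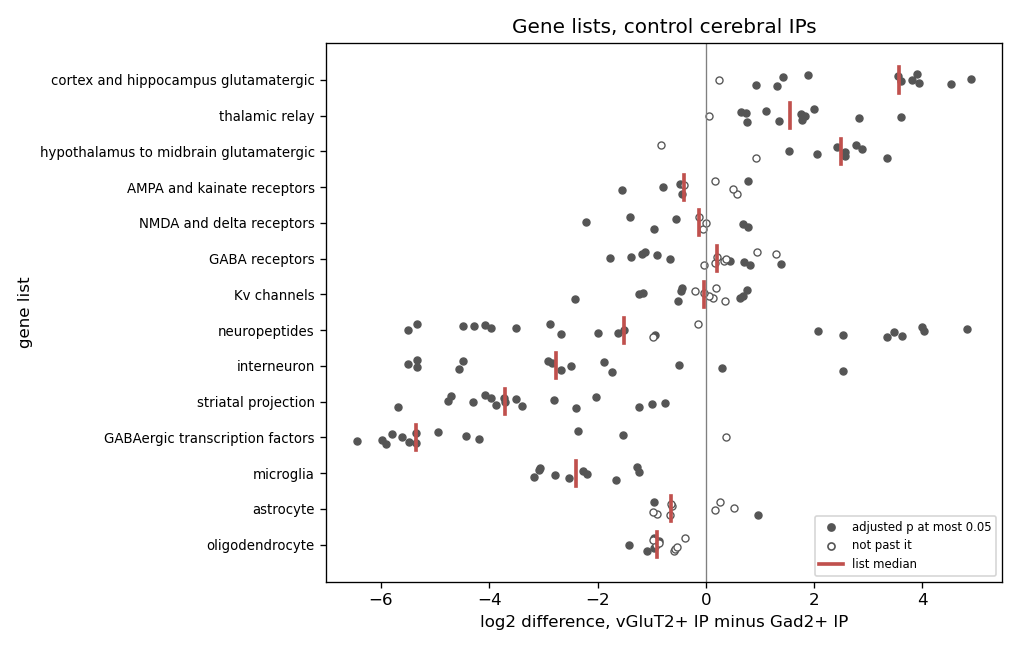
Log2 difference, vGluT2+ minus Gad2+ IP, on the horizontal axis for the tested genes of 14 lists on the vertical axis, filled where the adjusted p was 0.05 or less and open otherwise, with a red bar at each list's median. Medians run from 3.57 for genes of cortical and hippocampal excitatory neurons to -5.35 for transcription factors of GABAergic lineages.

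Genes of other transmitters fell on both sides, with 3 of 13 higher in vGluT2+ and 7 in Gad2+ IPs, against 15.2% and 14.7% of all genes. The groups did not overlap for 3 of the 13, against 18.2% of all genes. *Slc6a5*, the glycine transporter of inhibitory hindbrain and midbrain neurons, ranged from 0.247 through 0.521 to 2.34 CPM in vGluT2+ and from 25.4 through 59.9 to 100 CPM in Gad2+ IPs. Levels varied widely among the Gad2+ libraries, all above the vGluT2+ libraries (log2 difference -5.95 ± 0.55, edgeR adjusted p = 6.40e-07). The dopamine transporter *Slc6a3* was the reverse, at 15.5 through 19.0 to 21.3 CPM in vGluT2+ and 1.54 through 2.33 to 3.28 CPM in Gad2+ IPs (log2 difference 2.997 ± 0.18, edgeR adjusted p = 7.65e-09). *Th*, the first enzyme of dopamine synthesis, overlapped at 12.0 to 24.1 and 12.2 to 44.2 CPM (edgeR adjusted p = 0.424). *Chat*, which makes acetylcholine, was at 1.41 CPM or less in vGluT2+ and at 3.44 to 4.38 CPM in Gad2+ IPs (log2 difference -2.22 ± 0.29).

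Neuropeptide precursors were divided between the types. Of 23 tested, 8 were higher in vGluT2+ IPs, all of them 4-fold or more, and 13 in Gad2+ IPs, 9 of them 4-fold or more, against 15.2% and 14.7% of all genes called and 1.98% and 2.43% at 4-fold. The groups did not overlap for 18 of the 23, against 18.2% of all genes. Precursors of peptides made in the hypothalamus lay on both sides. *Pmch*, the melanin-concentrating hormone precursor, ranged from 25.7 through 45.5 to 54.7 CPM in vGluT2+ and from 0.631 through 1.85 to 8.62 CPM in Gad2+ IPs (log2 difference 3.998 ± 0.49, edgeR adjusted p = 1.22e-05). *Oxt*, oxytocin, ranged from 6.70 through 25.1 to 57.4 CPM and from 0.163 through 0.346 to 4.36 CPM (log2 difference 4.83 ± 0.76, edgeR adjusted p = 0.000157). For both genes, and for *Hcrt* (orexin), Gad2+ replicate 1 stood above the rest of its group. Without it the log2 differences were 4.80 for *Pmch*, 6.53 for *Oxt* and 5.401 for *Hcrt*.

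The log2 difference of *Avp*, vasopressin, was 3.62 ± 0.54, of *Hcrt* 4.03 ± 0.65 and of *Grp*, gastrin-releasing peptide, 3.48 ± 0.26. On the Gad2+ side, beside *Penk*, *Tac1*, *Pdyn*, *Sst*, *Npy* and *Vip*, stood *Pnoc*, the nociceptin precursor, at 2.33 to 4.13 CPM in vGluT2+ and 54.9 to 68.8 CPM in Gad2+ IPs (log2 difference -4.29 ± 0.15). Precursors of peptides that hypothalamic and other neurons make were there too. The log2 difference of *Crh*, corticotropin-releasing hormone, was -2.68 ± 0.16 and of *Gal*, galanin, -1.62 ± 0.30, both without overlap. *Cartpt*, the precursor of CART peptides, overlapped at 11.4 to 44.3 and 29.6 to 56.5 CPM, with vGluT2+ replicate 1 far above the rest of its group (log2 difference -0.95 ± 0.28, edgeR adjusted p = 0.0173), and was not called with *Xist* as a covariate (edgeR adjusted p = 0.134). *Ghrh*, growth hormone-releasing hormone, was low and overlapped, at 0.141 to 0.330 and 0.112 to 2.11 CPM (log2 difference -1.99 ± 0.66, edgeR adjusted p = 0.0325). Its call was lost in 10 of 23 alternative settings, which included leaving out any single one of Gad2+ replicates 1 and 5 or vGluT2+ replicates 2 to 5 (edgeR adjusted p from 0.0526 to 0.0859). *Trh*, thyrotropin-releasing hormone, was not called, at 11.1 to 26.1 and 12.0 to 29.8 CPM (edgeR adjusted p = 0.690).

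Ionotropic glutamate receptor subunits were called in both directions. Of 9 AMPA and kainate subunits, 1 was higher in vGluT2+ and 4 in Gad2+ IPs, none of them 4-fold. Over all genes 15.2% and 14.7% were called and 1.98% and 2.43% reached 4-fold, so a list of this size with no member at 4-fold does not stand apart, and the same shares apply to all lists that follow. *Grik1*, a kainate subunit of interneurons, ranged from 8.37 through 9.84 to 11.7 CPM in vGluT2+ and from 16.9 through 29.4 to 43.5 CPM in Gad2+ IPs (log2 difference -1.55 ± 0.18, edgeR adjusted p = 9.52e-06), and the kainate subunit *Grik4* was the one higher in vGluT2+ IPs (0.77 ± 0.11). The AMPA subunit *Gria1* overlapped (log2 difference -0.44 ± 0.10, edgeR adjusted p = 0.00338). Of 9 NMDA and delta subunits, 2 were higher in vGluT2+ and 4 in Gad2+ IPs. The obligatory subunit *Grin1* was not called, with a log2 difference of -0.01 ± 0.13 (edgeR adjusted p = 0.986). Among the subunits that set NMDA receptor kinetics, *Grin2a* (0.78 ± 0.18) and *Grin2b* (0.68 ± 0.17) were higher in vGluT2+ IPs. *Grin2d* was the opposite, at 7.80 through 9.84 to 12.1 CPM in vGluT2+ and 32.9 through 47.3 to 55.3 CPM in Gad2+ IPs (log2 difference -2.21 ± 0.15, edgeR adjusted p = 2.72e-08).

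Metabotropic glutamate receptors were tested for 7 of 8 members, with 2 higher in vGluT2+ and 1 in Gad2+ IPs, against 15.2% and 14.7% of all genes. *Grm2*, a presynaptic autoreceptor, ranged from 97.8 through 114 to 121 CPM in vGluT2+ and from 13.0 through 16.5 to 21.4 CPM in Gad2+ IPs (log2 difference 2.68 ± 0.14, edgeR adjusted p = 1.24e-09). *Grm4*, another presynaptic metabotropic receptor, was higher in Gad2+ IPs (log2 difference -0.96 ± 0.10). Of 17 GABA receptor subunits, 4 were higher in vGluT2+ and 6 in Gad2+ IPs, and none reached 4-fold. *Gabra5*, a subunit of extrasynaptic receptors in hippocampus, had a log2 difference of 1.38 ± 0.13 and the GABA-B subunit *Gabbr2* of 0.82 ± 0.10, while *Gabrg3* differed by -1.18 ± 0.17 and the extrasynaptic subunit *Gabrd* by -0.66 ± 0.12. The partner subunit *Gabbr1* was not called, at 904 to 998 CPM in vGluT2+ and 858 to 1177 CPM in Gad2+ IPs.

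Among 25 receptors for dopamine, serotonin, acetylcholine, cannabinoids and opioids, 5 were higher in vGluT2+ and 11 in Gad2+ IPs, 4 of the latter 4-fold or more. *Cnr1*, the cannabinoid receptor of presynaptic terminals, ranged from 51.5 through 95.1 to 115 CPM in vGluT2+ and from 219 through 284 to 361 CPM in Gad2+ IPs (log2 difference -1.68 ± 0.17, edgeR adjusted p = 2.19e-06). The serotonin receptor *Htr1d* differed by -2.42 ± 0.16. The muscarinic receptor *Chrm3* was higher in vGluT2+ IPs (log2 difference 1.42 ± 0.11).

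Voltage-gated channel subunits were called in both directions. Of 15 Kv potassium channel subunits, 3 were higher in vGluT2+ and 6 in Gad2+ IPs. The Kv3 genes *Kcnc1* and *Kcnc2*, which permit fast repetitive firing, differed by -1.24 ± 0.09 and -1.16 ± 0.17, and *Kcna5* by -2.41 ± 0.13. Of 13 sodium and HCN channel subunits, 4 were higher in vGluT2+ and 3 in Gad2+ IPs. *Scn4b*, a sodium channel β subunit abundant in striatum, ranged from 163 through 209 to 254 CPM in vGluT2+ and from 740 through 871 to 980 CPM in Gad2+ IPs (log2 difference -2.06 ± 0.12, edgeR adjusted p = 3.80e-09). Of 8 calcium channel pore subunits, 3 were higher in vGluT2+ IPs and 1 in Gad2+ IPs, *Cacna1h* (-0.60 ± 0.13). The 3 included *Cacna1g* (0.77 ± 0.17) and *Cacna1e* (0.63 ± 0.17), the latter not called with *Xist* as a covariate (edgeR adjusted p = 0.0702). Of 4 glycine receptor subunits tested, 1 was higher in Gad2+ IPs. Of 5 neurofilament genes, 1 was higher in vGluT2+ IPs, the light chain *Nefl* (0.59 ± 0.12), a count near the 15.2% of all genes.

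Calcium-binding proteins were called in both directions, with 4 of 12 higher in vGluT2+ and 6 in Gad2+ IPs. *Ncald*, neurocalcin, ranged from 827 through 860 to 890 CPM in vGluT2+ and from 334 through 359 to 419 CPM in Gad2+ IPs, both groups tight (log2 difference 1.24 ± 0.08, edgeR adjusted p = 9.18e-09). *Vsnl1*, visinin-like protein, differed by 0.69 ± 0.11. *Pcp4l1*, a calmodulin-binding protein, ranged from 106 to 137 CPM in vGluT2+ and from 608 to 765 CPM in Gad2+ IPs (log2 difference -2.58 ± 0.10), and *Necab2*, a neuronal calcium-binding protein, differed by -1.34 ± 0.12.

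Of 12 synaptotagmins and complexins, proteins of vesicle release, 4 were higher in vGluT2+ and 5 in Gad2+ IPs. *Syt1*, the main calcium sensor of the forebrain, was higher in vGluT2+ IPs though groups overlapped (log2 difference 0.58 ± 0.14, edgeR adjusted p = 0.00489). *Syt2*, the fast calcium sensor of many inhibitory terminals, ranged from 88.3 through 123 to 191 CPM in vGluT2+ and from 329 through 409 to 461 CPM in Gad2+ IPs (log2 difference -1.61 ± 0.19, edgeR adjusted p = 8.28e-06). *Syt6* differed by -2.22 ± 0.13 and *Cplx1*, which clamps and promotes fusion, by -0.75 ± 0.09. Of 20 synapse organizers, 5 were higher in vGluT2+ and 3 in Gad2+ IPs, against 15.2% and 14.7% of all genes. The secreted organizers *Cbln1* (2.32 ± 0.16) and *Cbln2* (1.19 ± 0.13) and the neurexin ligand *Nxph3* (2.198 ± 0.19) lay on the vGluT2+ side. A second neurexin ligand, *Nxph1*, was the reverse, at 8.65 through 17.1 to 21.9 CPM in vGluT2+ and 99.8 through 118 to 139 CPM in Gad2+ IPs (log2 difference -2.83 ± 0.19, edgeR adjusted p = 1.62e-08).

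Over all genes, those of the families above included, the 12 with the largest differences on the vGluT2+ side were *Neurod6*, *Oxt*, *Dkkl1*, *Emx1*, *Nrn1*, *Tbata*, *Ovol2*, *Endou*, *Hcrt*, *Ly6g6e*, *Pmch* and *Psrc1*. They were taken among genes without overlap at a mean of 5 CPM or more in the type where they were higher. Genes near 0 in the other type were therefore included. *Dkkl1*, related to the Dickkopf family of Wnt regulators, ranged from 33.7 through 36.0 to 58.7 CPM in vGluT2+ and from 0.862 through 1.23 to 2.54 CPM in Gad2+ IPs (log2 difference 4.70 ± 0.28, edgeR adjusted p = 4.68e-09). *Nrn1*, neuritin, an activity-regulated protein of neurite growth, ranged from 266 through 316 to 368 CPM and from 6.38 through 10.7 to 32.1 CPM (log2 difference 4.44 ± 0.35, edgeR adjusted p = 1.14e-07). The zinc finger gene *Ovol2* was low but tight, at 9.22 to 11.4 CPM against 0.201 to 0.847 CPM (log2 difference 4.24 ± 0.27). *Tbata*, *Endou*, *Ly6g6e* and *Psrc1* had log2 differences of 4.26, 4.06, 4.02 and 3.99, all with levels of 18 CPM or less, and that of *Ly6g6e* was 4.63 without Gad2+ replicate 4. The 5 most abundant genes past 4-fold were *Slc17a7*, *Nptxr*, *Dkk3*, *Nptx1* and *Cck*. *Nptxr* and *Nptx1*, pentraxins that cluster AMPA receptors at synapses, had medians of 1876 and 571 CPM in vGluT2+ IPs and log2 differences of 2.38 ± 0.13 and 2.40 ± 0.16. *Dkk3*, a further Dickkopf relative, had medians of 584 and 55.9 CPM (log2 difference 3.30 ± 0.18).

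On the Gad2+ side the 12 included *Clec12a*, *Dlx5*, *Slc32a1*, *Dlx6*, *Slc6a5*, *Six3*, *Myl1*, *Adora2a*, *Cd4*, *Gata3* and *Npy*. *Cd4*, known as a T cell co-receptor, ranged from 1.01 through 1.24 to 2.53 CPM in vGluT2+ and from 61.3 through 79.8 to 86.9 CPM in Gad2+ IPs, and no library lay between (log2 difference -5.64 ± 0.23, edgeR adjusted p = 1.67e-10). *Clec12a*, a C-type lectin of myeloid cells, was at 0.139 CPM or less in vGluT2+ and at 4.28 to 11.0 CPM in Gad2+ IPs. *Myl1*, a myosin light chain of skeletal muscle, was at 0.242 CPM or less and at 6.17 to 10.4 CPM. The fitted log2 differences of these genes, -6.49 and -5.80, rested on few counts in vGluT2+ IPs, and that of *Myl1* was -6.73 with *Xist* as a covariate. The 5 most abundant past 4-fold included *Penk*, *Ppp1r1b*, *Gad1* and *Scn4b*, all given above.

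Markers of cells that should carry neither Cre driver were measured as a background. All 10 microglia markers were higher in Gad2+ IPs, 7 of them 4-fold or more, with a median log2 difference of -2.40. *Csf1r*, the receptor microglia need to survive, ranged from 2.27 through 4.63 to 7.84 CPM in vGluT2+ and from 20.04 through 27.8 to 56.6 CPM in Gad2+ IPs (log2 difference -2.79 ± 0.34, edgeR adjusted p = 1.24e-05). *P2ry12* and *Tmem119*, which set microglia apart from other macrophages, differed by -3.09 ± 0.43 and -3.06 ± 0.41 without overlap, and *P2ry12* by -3.97 with *Xist* as a covariate. The summed level of the 10 genes was 32.1 to 58.3 CPM in vGluT2+ IPs, 118 to 265 CPM in Gad2+ IPs, 439 to 515 CPM in total RNA of the vGluT2 line and 367 to 470 CPM in total RNA of the Gad2 line. The groups of IPs did not overlap, and the Gad2+ IPs were nearer to total RNA. None of them was at 0 in either type. In total RNA of the 2 lines *Cd4* was at 11.3 to 16.8 CPM and *Clec12a* at 0.365 to 1.19 CPM, below every Gad2+ IP, whereas the summed microglia markers were higher in every total RNA library than in any Gad2+ IP. The part of microglial RNA in genes higher in Gad2+ IPs was not tested.

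Of 12 markers of oligodendrocytes and their precursors, 5 were higher in Gad2+ IPs, none in vGluT2+ IPs and none 4-fold, *Mag* among them (log2 difference -1.41 ± 0.26). Their summed level was 353 through 571 to 750 CPM in vGluT2+, 458 through 927 to 1696 CPM in Gad2+ IPs and 6028 to 7287 CPM in total RNA, *Mbp* was the most abundant, and none was at 0. Of 10 astrocyte markers, 1 was higher in each type, *Aldh1l1* in vGluT2+ (log2 difference 0.96 ± 0.23) and *Aqp4* in Gad2+ IPs (-0.95 ± 0.34, edgeR adjusted p = 0.0471), no more than the shares of all genes (15.2% and 14.7%). The call of *Aqp4* was lost without any single one of Gad2+ replicates 1, 2, 3 and 6 or vGluT2+ replicates 1, 2, 4, 5 and 6 (edgeR adjusted p from 0.0514 to 0.121), and in all in 12 of 24 alternative settings. The summed astrocyte level was 653 to 1011 CPM in vGluT2+, 337 to 1196 CPM in Gad2+ IPs and 4575 to 6148 CPM in total RNA, with *Slc1a2* the most abundant in IPs and *Apoe* in total RNA.

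None of 8 vascular and choroid plexus markers was called, with summed levels of 38.0 to 124 CPM in vGluT2+ and 33.9 to 160 CPM in Gad2+ IPs against 857 to 1349 CPM in total RNA, *Ttr* the most abundant. No astrocyte or vascular marker was at 0 in either type. The part of these cells in other differences was not tested. Neither the 13 protein genes of the mitochondrial genome nor 10 immediate early genes held a called member.

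**Figure D3:**
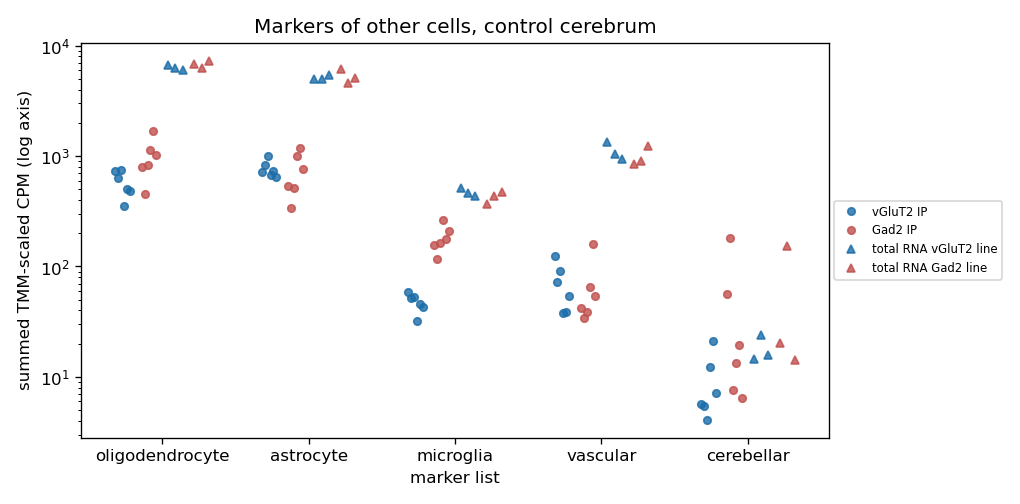
Summed level of each list of markers of other cells in control cerebral libraries, in CPM after TMM scaling on a log axis, with a point for each IP (circles, 6 per type) and a triangle for each total RNA library (3 per line), blue for the vGluT2 line and red for the Gad2 line. Microglia markers sum to 32.1 to 58.3 CPM in vGluT2+ and 118 to 265 CPM in Gad2+ IPs, and to 367 to 515 CPM in total RNA.

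Cerebellar tissue should have been absent, and its markers varied between animals. Of 5 markers of cerebellar granule and Purkinje cells, 2 were higher in Gad2+ IPs, the Purkinje genes *Pcp2* and *Car8*. *Pcp2* ranged from 0 through 0.0299 to 0.318 CPM in vGluT2+ and from 0.0862 through 0.789 to 72.2 CPM in Gad2+ IPs, where replicate 4 was the highest, and the groups overlapped. The fitted log2 difference of *Pcp2* was -7.58 ± 1.68, and -5.21 without Gad2+ replicate 4 (edgeR adjusted p = 0.00573). It was -5.87 with a replicate block, -8.56 without vGluT2+ replicate 1 and -8.82 with *Xist* as a covariate. That of *Car8* was -2.997 ± 0.64, -2.07 without Gad2+ replicate 4 (edgeR adjusted p = 0.00232) and -2.19 with a replicate block. The fitted size for *Pcp2* rests on levels near 0 in vGluT2+ IPs and is no bound. The summed level of the 5 was 180 CPM in Gad2+ replicate 4, 55.9 CPM in replicate 3 and 19.2 CPM or less in the other 4 Gad2+ IPs. It was 154 CPM in the total RNA of the mouse of replicate 4, against 24.0 CPM or less in the other 5 total RNA libraries.

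The same comparison in HD mice used other animals, 6 of each type, and called 1542 genes higher in vGluT2+ (10.7%) and 1546 in Gad2+ IPs (10.7%) of 14471 tested. One of the HD vGluT2+ libraries, which carries "re" in its label and was taken as one of those re-sequenced per the methods, held 14447 genes with a count against 20253 to 21970 in the other 5. Without it 1777 and 2086 genes were called. Of 4266 genes called in controls and tested in HD mice, 4221 had the same sign, and 2670 were called the same way. These made up 62.6% of the control calls tested and 86.5% of the HD calls. Of 602 genes past 4-fold in controls and tested in HD mice, 600 had the same sign and 526 were called. Without the re-sequenced library, 3141 of 4271 were called the same way, which made up 73.5% of the control calls tested and 81.3% of the HD calls, and of 606 past 4-fold all had the same sign and 586 were called. *Slc17a6* differed by 3.04, *Slc17a7* by 3.36, *Gad2* by -4.47 and *Slc32a1* by -5.94 on the log2 scale in HD mice, and by 3.10, 3.35, -4.37 and -6.26 without that library.

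In HD mice the median log2 difference was 3.71 for telencephalic excitatory, -3.54 for striatal and -5.11 for GABAergic transcription factor genes, beside 3.57, -3.71 and -5.35 in controls. Without the re-sequenced library it was 3.74, -3.54 and -5.07. Lists with medians near 0 did not all keep their sign, among them calcium-binding proteins with -0.18 in controls and 0.17 in HD mice and metabotropic glutamate receptors with -0.19 and 0.13. Without the re-sequenced library these HD medians were 0.13 and -0.08. The median of neurofilament genes was 0.28 and 0.73, and that of cerebellar markers 0.81 and 1.54. All 10 microglia markers were again higher in Gad2+ IPs, with a median log2 difference of -3.17, and -3.48 without the re-sequenced library. Whether any of these differences depended on genotype was not tested. *Avp* had a log2 difference of 1.95 (edgeR adjusted p = 0.05), *Lamp5* of -0.10 (edgeR adjusted p = 0.485) and *Ebf1* of -0.57 (edgeR adjusted p = 0.219) in HD mice. Without the re-sequenced library they were 2.21 (edgeR adjusted p = 4.87e-05), -0.10 (edgeR adjusted p = 0.513) and -0.73 (edgeR adjusted p = 0.092).

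Whether the types differed in the same way in the cerebellum was asked with an interaction test over 12 cerebral and 11 cerebellar control IPs with the mouse as a block. The interaction is the cerebral minus the cerebellar log2 difference. The mouse of cerebral vGluT2+ replicate 6 had no cerebellar IP, so with the block its library did not bear on this difference. The 3 mice with unmatched Y-linked genes were among the 5 vGluT2 mice with both regions and weigh on the interaction directly. The interaction was called for 3084 genes above 0 (21.4%) and 2938 below 0 (20.3%) of 14441, and for 1953 and 1697 without the 3 mice. Cerebellar Gad2+ replicate 5 held 15289 genes with a count, against 19963 to 21056 in the rest of its group. Without it 3130 and 3222 genes were called. The cerebral libraries are those of the main comparison, so its values stand only beside it. Cerebellar vGluT2+ neurons are chiefly granule cells, and cerebellar Gad2+ neurons chiefly Purkinje cells and interneurons.

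The transporter genes *Slc17a6* and *Slc17a7* gave interactions of -0.63 (edgeR adjusted p = 0.281) and 0.23 (edgeR adjusted p = 0.579), and *Gad2* and *Slc32a1* of -0.52 (edgeR adjusted p = 0.232) and -0.63 (edgeR adjusted p = 0.0573), none called. Without the 3 mice they were -1.27 (edgeR adjusted p = 0.0935), 0.22 (edgeR adjusted p = 0.769), -0.82 (edgeR adjusted p = 0.109) and -0.75 (edgeR adjusted p = 0.0554) in the same order. *Gad2* was called without the cerebral or the cerebellar vGluT2+ replicate 3 (edgeR adjusted p = 0.0326 and 0.0328). *Slc32a1* was called without replicate 1 of either type in either region (edgeR adjusted p from 0.00945 to 0.0234) and by DESeq2 (DESeq2 adjusted p = 0.0451). *Gad1* gave -1.15 (edgeR adjusted p = 0.00337), and -1.29 without the 3 mice (edgeR adjusted p = 0.00409). In the cerebellum *Slc17a7* averaged 1301 CPM in vGluT2+ and 145 CPM in Gad2+ IPs, and *Slc32a1* 18.8 and 780 CPM, the same order as in the cerebrum. Other genes did not keep their side. *Grm2*, higher in vGluT2+ IPs of the cerebrum, averaged 9.65 CPM in cerebellar vGluT2+ and 114 CPM in cerebellar Gad2+ IPs, the opposite order (interaction 6.30 ± 0.19, edgeR adjusted p = 2.01e-10). Without the 3 mice it was 6.21 (edgeR adjusted p = 1.33e-06).

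The order was also opposite for *Neurod6* and *Dkkl1*, at 1.77 against 16.0 CPM and 0.254 against 2.96 CPM in the cerebellum (interactions 8.28 and 8.25, and 8.11 and 8.06 without the 3 mice), and for *Prkcd*, at 20.6 against 276 CPM (5.50, and 5.32 without them). *Cck* averaged 8.79 and 118 CPM there (interaction 7.32 ± 0.68, edgeR adjusted p = 1.25e-06). Its size depended on the libraries and the model, at 5.79 without the 3 mice (edgeR adjusted p = 0.000362), 6.27 without the mouse as a block (edgeR adjusted p = 1.91e-07) and 7.99 without vGluT2+ replicate 5 of either region. *Grm4*, higher in cerebral Gad2+ IPs, averaged 926 CPM in cerebellar vGluT2+ and 104 CPM in cerebellar Gad2+ IPs (interaction -4.04 ± 0.19, edgeR adjusted p = 4.00e-09, and -3.74 without the 3 mice). *Pvalb* kept its order, at 117 and 3626 CPM, with an interaction of 1.95 (edgeR adjusted p = 0.000501), and 1.67 without the 3 mice (edgeR adjusted p = 0.0137).

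The 5 largest interactions above 0 were those of *Prss16*, *Hcrt*, *Endou*, *Neurod6* and *Dkkl1*, and the 5 below 0 those of *Rln3*, *Isl1*, *Lhx6*, *Cort* and *Crabp1*. In the cerebellum *Endou* averaged 0.199 CPM in vGluT2+ and 3.86 CPM in Gad2+ IPs. *Hcrt* and *Prss16* were at 0 in all cerebellar vGluT2+ IPs, and the genes below 0 averaged 0.113 CPM or less in both cerebellar types, so the fitted size of these interactions depends on the prior count and is no bound. *Hcrt* averaged 0.0568 CPM in cerebellar Gad2+ IPs. For it and the genes below 0, levels were too low to read a difference between the cerebellar types. In the cerebrum *Isl1*, a factor of striatal direct pathway neurons, was at 1.08 CPM or less in vGluT2+ and 14.4 to 23.8 CPM in Gad2+ IPs. *Cort*, the cortistatin precursor of interneurons, was at 0.364 CPM or less and 7.26 to 12.0 CPM, *Crabp1*, a retinoic acid binding protein, at 0.409 to 1.72 and 7.50 to 12.3 CPM, and *Rln3*, the relaxin-3 precursor of brainstem neurons, at 0.0909 CPM or less and 1.08 to 9.83 CPM. Leaving out replicate 1 or replicate 2 of the Gad2+ IPs in either region moved the interaction of *Hcrt* from 8.66 to 9.66 or 7.65. That of *Prss16* moved from 11.23 to 12.16 without Gad2+ replicate 5, and that of *Lhx6* from -8.36 to -7.77 without vGluT2+ replicate 5. The interaction of *Cort* was -8.17, and -7.06 and no longer called without the 3 mice (edgeR adjusted p = 0.0786). It was -7.46 without the cerebellar and -7.49 without the cerebral vGluT2+ replicate 4, and -7.35 by DESeq2, where that of *Isl1* went from -8.83 to -8.06. That of *Rln3* was -8.89, and -6.45 and not called without the 3 mice (edgeR adjusted p = 1). It was -6.75 and -6.73, also not called, without the cerebellar or the cerebral vGluT2+ replicate 1 (edgeR adjusted p = 1), -8.08 and not called by DESeq2 (DESeq2 adjusted p = 0.225), and -10.15 and -10.02 without the cerebellar or the cerebral vGluT2+ replicate 2. That of *Crabp1* was -7.95, and -3.68 and -3.64 and not called without the cerebellar or the cerebral vGluT2+ replicate 2 (edgeR adjusted p = 1). It was -4.51 and not called by DESeq2 (DESeq2 adjusted p = 0.0721), -8.54 and -8.57 without vGluT2+ replicate 4 of cerebellum or cerebrum, and -10.004 without the 3 mice (edgeR adjusted p = 0.0291).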

How the data were processed

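Per the study's methods and processing notes, the authors aligned reads of stranded mRNA libraries with STAR to GRCm38.p6 and quantified genes with Salmon (nf-core/rnaseq, default settings), and the deposited values are expected counts per gene, not normalized. The labels and methods name no version of STAR or Salmon. Of 55401 rows, 92 spike-ins were left out, values were rounded to whole numbers (8.57% were not whole), and 55141 identifiers matched GENCODE release 21 annotation of mouse. Protein-coding genes with a mean count above 10 were tested with edgeR 4.0.16 (R 4.3.3) by the quasi-likelihood test, with TMM scaling and Benjamini-Hochberg adjustment over all genes tested, called at an adjusted p of 0.05 or less; a second rule added a 4-fold difference. Per-gene levels are CPM of TMM-scaled libraries, counts over a common library total. Each group was fitted with the other group of its comparison only, and the interaction with the mouse as a block. The scripts were tested on simulated data. Named genes were list members, the 12 per direction with the largest differences at a mean of 5 CPM or more in the higher type without overlap, the 5 per direction with the highest levels past 4-fold, and the 5 per direction with the largest interactions. Members and lists were chosen with earlier results of these data known. Alternatives were DESeq2 1.42.0, other scalings, filters and gene types, a test against 2-fold, Xist as a covariate, a replicate block, and leaving out each library. After seeing the data, the 3 libraries or mice with unmatched Y-linked genes were left out and *Ddx3y* was used as a covariate. Counts of no 2 libraries of a group agreed within sampling noise (lowest chi-square per degree of freedom 8.69 over 91 pairs). At these depths, precision was limited for genes below about 1 CPM. Some genes that the rule for named genes would give are not reported here.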

Additional observations from a re-analysis of the deposited data

Results flagged for a closer look

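Of 274 groups of 6 values examined, 28 held a library far from the other 5, where chance gives about 1 in 20 groups. In vGluT2+ replicate 1 the level was far above the rest for *Cartpt* (44.3 CPM), *Cck* (829), *Dkkl1* (58.7), *Necab2* (107.9), *Nrgn* (3716) and *Ppp1r1b* (241), and far below for *Aldh5a1* (45.3), *Kcnc2* (39.4), *Syt6* (12.4) and *Tbr1* (122). In Gad2+ replicate 1 it was far above the rest for *Adcyap1* (9.17 CPM), *Hcrt* (1.45), *Lhx9* (2.63), *Neurod6* (10.6), *Oxt* (4.36), *Pmch* (8.62) and *Psrc1* (1.57), all genes higher in vGluT2+ IPs, and for the summed vascular (159.5 CPM) and mitochondrial genes (3585). In Gad2+ replicate 4 it was far above for *Car8* (101 CPM), *Pcp2* (72.2), the summed cerebellar markers (180 CPM) and *Drd2* (187). Single values stood apart for *Car8* (5.98 CPM, high) and *Grik4* (24.8, low) in vGluT2+ replicate 5, *Gria1* (447, high) in vGluT2+ replicate 3, *Vip* (0.330, low) in vGluT2+ replicate 6 and *Syt1* (879, low) in Gad2+ replicate 6.

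The difference between types differed between cerebrum and cerebellum, by the edgeR interaction test, for *Dkkl1* (8.25), *Endou* (8.53), *Neurod6* (8.28), *Cck* (7.32), *Grm2* (6.30), *Prkcd* (5.50), *Pvalb* (1.95), *Gad1* (-1.15) and *Grm4* (-4.04). The test also called *Prss16* (11.23), *Hcrt* (8.66), *Rln3* (-8.89), *Isl1* (-8.83), *Lhx6* (-8.36), *Cort* (-8.17) and *Crabp1* (-7.95), where cerebellar levels near 0 make the fitted sizes depend on the prior count. All but *Prss16* averaged 0.113 CPM or less in both cerebellar types. Whether the types differed in the cerebellum cannot be read for the genes other than *Prss16*. The calls of *Rln3*, *Crabp1* and *Cort* were lost in 4, 3 and 1 of 27 alternatives, DESeq2 among them for *Rln3* (DESeq2 adjusted p = 0.225) and *Crabp1* (DESeq2 adjusted p = 0.0721). With the mouse as a block, leaving out the cerebral or the cerebellar library of a mouse is nearly the same fit. These alternatives are therefore not all separate checks.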

How the results depend on the processing

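In all 149 log2 differences of named genes, in the main comparison or the interaction, were refitted under up to 27 alternatives each. Of 3763 values 84 lost and 12 gained a call, and none changed sign where the main or the alternative fit called it. A change of sign with neither fit called was not counted. The counts of 2188 and 2123 genes moved by over 1.5 times only in the test against 2-fold, which asks for larger differences (420 and 459). Scaling by library totals gave 1856 and 2609 genes. *Xist* as a covariate, which partly followed the type, gave 1787 and 1746. DESeq2 called 2468 and 2324. Leaving out each library in turn gave 1878 to 2526 genes higher in vGluT2+ and 1799 to 2526 in Gad2+ IPs, and 277 to 315 and 337 to 366 at 4-fold. In HD mice it gave 1251 to 1777 and 1245 to 2086, the highest without the re-sequenced library. In total RNA DESeq2 called 1 gene where edgeR called 0.

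The replicate numbers did not pair the 2 lines, whose mice differ: libraries of the same number had correlations of -0.059 to 0.266, and only replicate 3 correlated best with its own number. With a replicate block 1991 and 1905 genes were called, 308 and 350 at 4-fold, and 0 and 0 in total RNA.

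Without the 3 mice with unmatched Y-linked genes, chosen after seeing the data, the interaction was called for 1953 and 1697 genes, with fewer samples fitted; leaving out each library gave 2712 to 3147 and 2561 to 3222. With *Ddx3y* as a covariate, also chosen then, the main comparison gave 1918 and 1863 genes. The Cre line, cohort and cell type cannot be told apart, the groups differ in how many libraries held Y-linked genes, and IPs hold some RNA of other cells. Total RNA had only 3 libraries per line, and genes near 0 CPM in a group have no firm fold.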
